A study of Mus musculus with 6 samples.

Results

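RAW 264.7 cells, a mouse line with macrophage features, were cultured for 16 hours without treatment or with bacterial lipopolysaccharide (LPS, 100 ng/ml) and LPS-binding protein (100 pM), which passes LPS on to its receptor complex. The described genes are interferon-induced antiviral effectors and nucleic acid sensors, a list of 41 symbols. Of these, 29 had a probe that names them alone in the platform annotation, and 27 had a ratio on all 6 arrays, as did 9607 genes in all. Oas1a and Ifitm3 lacked a ratio on some arrays. Oas2, Oas3, Oasl1, Ifi35, Ifi44, Ddx58, Bst2, Ifi27l2a, Xaf1, Parp12, Ddx60 and Phf11b had no such probe in the table used here and were not analysed.

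Each array held treated and untreated RNA together, with treated RNA in Cy5 on 3 arrays and in Cy3 on 3, and each orientation had sets 1, 2 and 3. All values are log2 ratios of treated over untreated, averaged over the probes of a gene. Errors are the SD among 3 set values (n = 3), where a set value averages both orientations. Adjusted p-values come from limma over all 9607 genes, two-sided, with a threshold of 0.05 for a call. The direction of the deposited ratios is not stated and was taken as Cy5 over Cy3, which the labels make likely because they call the RNA in Cy5 the test. Whether the sets were separate cultures is not in the labels, and the p-values therefore rest on a spread between samples that may be only technical. Ratios carry no level, so the cell type could not be checked by the abundance of its markers, and in RNA of a whole culture fewer responding cells and less RNA per cell cannot be told apart. Of the macrophage markers, 8 were measured, with 6 higher, Csf1r lower (-0.27 ± 0.08) and Mrc1 not called (0.13 ± 0.05). Of markers of T cells, B cells and fibroblasts 1 each of 4, 3 and 4 measured was called higher. These were Cd4 (0.31 ± 0.15), Cd79a (0.35 ± 0.12) and Dcn (0.54 ± 0.44), and their part in the results was not tested. Beside all these marker counts, 16.8% of all genes were called higher and 14.6% lower.

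As background, macrophages that sense LPS through Toll-like receptor 4 signal through an adaptor that activates the transcription factor IRF3, and IRF3 with NF-kappaB turns on interferon beta. Secreted interferon binds its receptor, Janus kinases phosphorylate transcription factors, and these act with IRF9 on a DNA motif, the interferon-stimulated response element (ISRE), near the genes it controls. The products of these genes detect foreign nucleic acids, stop viral translation, degrade RNA, alter membranes or tag proteins with the ubiquitin-like modifier ISG15.

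To show where such motifs lie in the listed genes, promoters from RefSeq (GRCm38.p6) were read from 250 bases before to 50 after an annotated start. They were given for 31 of the 41 listed genes, and Oas2, Dhx58, Zbp1, Usp18, Mx1, Mx2, Parp9, Parp14, Ifi27l2a and Rtp4 had no entry. The ISRE core was searched as GAAANNGAAA on both strands, with overlapping matches counted separately. It was present in 16 of the 31 genes (51.6%), of which 9 had a ratio on all 6 arrays, and in 3.99% of all 27025 genes with such a promoter. Of single promoters, 1131 of 32851 (3.44%) held it. In the promoters below, each 5′ to 3′ on the strand of its gene, capitals mark ISRE matches. Ifit2, not shown, had no match and was raised more (log2 3.82) than Isg15 (3.76) and Ifit3 (3.68). Isg15, Ifit3 and Rsad2 are shown as strongly raised genes with matches, and Cmpk2 as the raised neighbour of Rsad2 without one. Oas1a and Oas1g are shown as closely related copies with different ratios.
Isg15 (chr4:156200769-156201068, minus strand): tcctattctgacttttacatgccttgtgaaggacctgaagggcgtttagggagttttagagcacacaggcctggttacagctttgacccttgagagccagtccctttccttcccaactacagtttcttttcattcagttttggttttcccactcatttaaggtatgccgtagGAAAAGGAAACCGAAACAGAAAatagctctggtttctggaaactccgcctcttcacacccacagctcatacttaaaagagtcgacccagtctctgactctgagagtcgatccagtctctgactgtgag
Ifit3 (chr19:34583279-34583578, plus strand): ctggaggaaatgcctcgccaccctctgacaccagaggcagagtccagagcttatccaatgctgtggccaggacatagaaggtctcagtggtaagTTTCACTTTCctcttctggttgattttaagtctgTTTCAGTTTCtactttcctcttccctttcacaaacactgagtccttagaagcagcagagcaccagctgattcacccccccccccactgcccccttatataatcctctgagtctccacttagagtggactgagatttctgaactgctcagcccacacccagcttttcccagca
Rsad2 (chr12:26456403-26456702, minus strand): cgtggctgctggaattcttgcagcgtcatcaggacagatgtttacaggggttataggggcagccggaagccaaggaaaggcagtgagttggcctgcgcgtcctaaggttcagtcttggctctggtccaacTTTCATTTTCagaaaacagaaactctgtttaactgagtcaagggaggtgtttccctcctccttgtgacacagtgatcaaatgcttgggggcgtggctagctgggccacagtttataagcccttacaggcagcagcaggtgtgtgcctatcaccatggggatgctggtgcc
Cmpk2 (chr12:26468965-26469264, plus strand): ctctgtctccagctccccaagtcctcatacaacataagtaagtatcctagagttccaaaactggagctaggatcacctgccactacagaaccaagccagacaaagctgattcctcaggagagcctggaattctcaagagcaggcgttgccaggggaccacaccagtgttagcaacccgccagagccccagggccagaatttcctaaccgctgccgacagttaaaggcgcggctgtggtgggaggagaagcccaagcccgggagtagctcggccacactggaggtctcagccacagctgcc
Oas1a (chr5:120907476-120907775, minus strand): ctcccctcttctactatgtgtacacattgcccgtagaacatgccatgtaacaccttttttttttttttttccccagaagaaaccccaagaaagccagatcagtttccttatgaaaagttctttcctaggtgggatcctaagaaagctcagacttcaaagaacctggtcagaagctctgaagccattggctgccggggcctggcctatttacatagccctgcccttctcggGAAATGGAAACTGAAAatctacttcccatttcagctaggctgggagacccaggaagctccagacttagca
Oas1g (chr5:120887564-120887863, minus strand): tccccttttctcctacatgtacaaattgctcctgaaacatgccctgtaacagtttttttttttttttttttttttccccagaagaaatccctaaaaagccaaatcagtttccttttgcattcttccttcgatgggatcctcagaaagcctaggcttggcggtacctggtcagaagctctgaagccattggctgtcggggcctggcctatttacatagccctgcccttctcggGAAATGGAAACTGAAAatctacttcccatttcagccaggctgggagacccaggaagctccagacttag

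In the Isg15 promoter 3 matches overlapped in a run whose first base lay 78 bases before the start. Ifit1 held matches that began 104 and 85 bases before its start, and Ifit3 held matches that began 156 and 122 bases before, all of them on the opposite strand. Rsad2 had 1 match, 120 bases before its start. The promoters of Oas1a and Oas1g had 85.3% identical bases over 306 aligned columns, and both carried an overlapping pair of matches, beginning 20 and 14 bases before the start in Oas1a and 18 and 12 bases before in Oas1g. In Ifih1, Eif2ak2 and Trim21 the matches lay after the start, by 32 bases in Ifih1, 18 in Eif2ak2 and 13 and 19 in Trim21. A match describes these letters in this window and shows no binding.

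**Figure D1:**
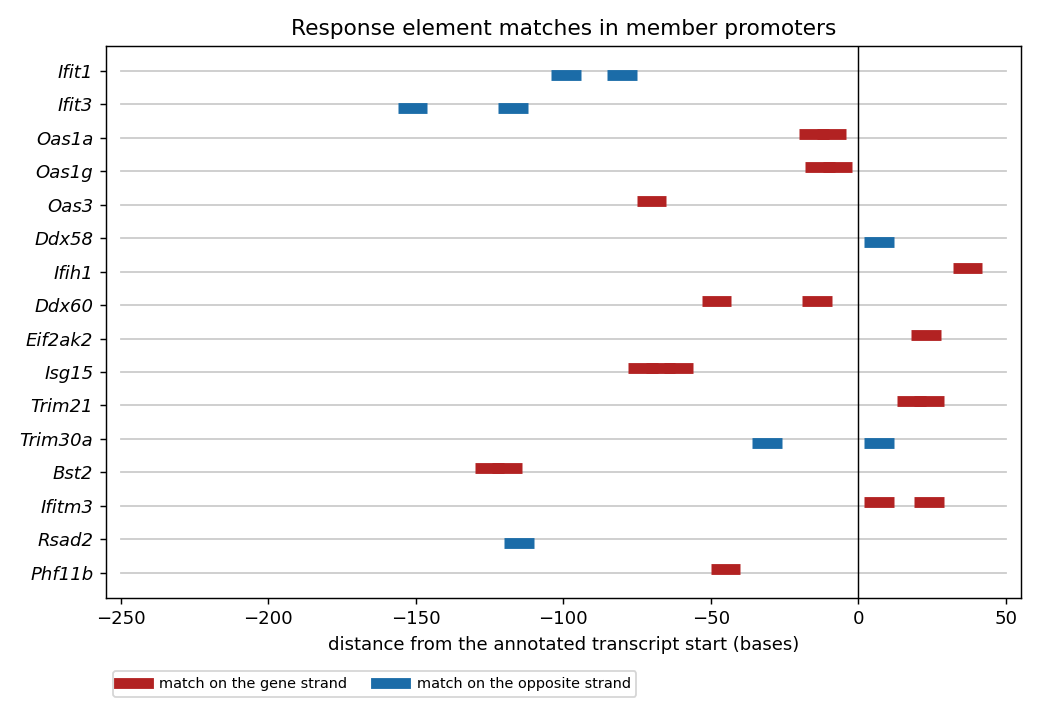
Positions of ISRE core matches (GAAANNGAAA) in the promoters of the 16 listed genes that held one, drawn to scale from 250 bases before to 50 after the annotated start (0); red bars are matches on the strand of the gene and blue bars on the opposite strand, and overlapping matches merge. Of 27 matches, 19 began before the start and 8 after it; Trim30a has 2 annotated starts with 1 match each, drawn on one line.

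The gamma-activated site, searched as TTCNNNGAA, was in 9 of the 31 genes (29%) against 9.55% of all genes. The kappaB motif, given by name because several of its positions are ambiguous, was in 6 (19.4%), against 9.55%. In Bst2 and Ifitm3 a gamma-activated site overlapped an ISRE match. Of the measured genes with a promoter entry, the 9 with an ISRE match had a median log2 ratio of 3.03 (0.71 to 4.38) and the 10 without one a median of 1.38 (0.56 to 3.82). The ranges overlapped over most of their width, and no test was made of this difference. Lack of a match covers only these exact letters in this window. Variant forms of the element and bases outside the window were not searched.

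All 27 measured genes were called higher in treated cells, beside 16.8% of all genes, while 14.6% of all genes were called lower. If the deposited ratios run the other way, every direction given here turns, so that the 27 genes would be lower, beside those 16.8%. Each of the 27 had a ratio above 0 on all 6 arrays, as did 18.6% of all genes. Their median was 4.19-fold (log2 2.07), beside a log2 median of -0.01 for all genes, and values ran from 1.47-fold for the exonuclease gene Isg20 to 20.8-fold for Rsad2. At least 2-fold rises numbered 25, at least 4-fold rises 14 and at least 8-fold rises 8. Of all 9607 genes, 3.71% reached 2-fold. These genes were listed with earlier results of the same arrays known, so their common direction is a description of them and no independent evidence.

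**Figure D2:**
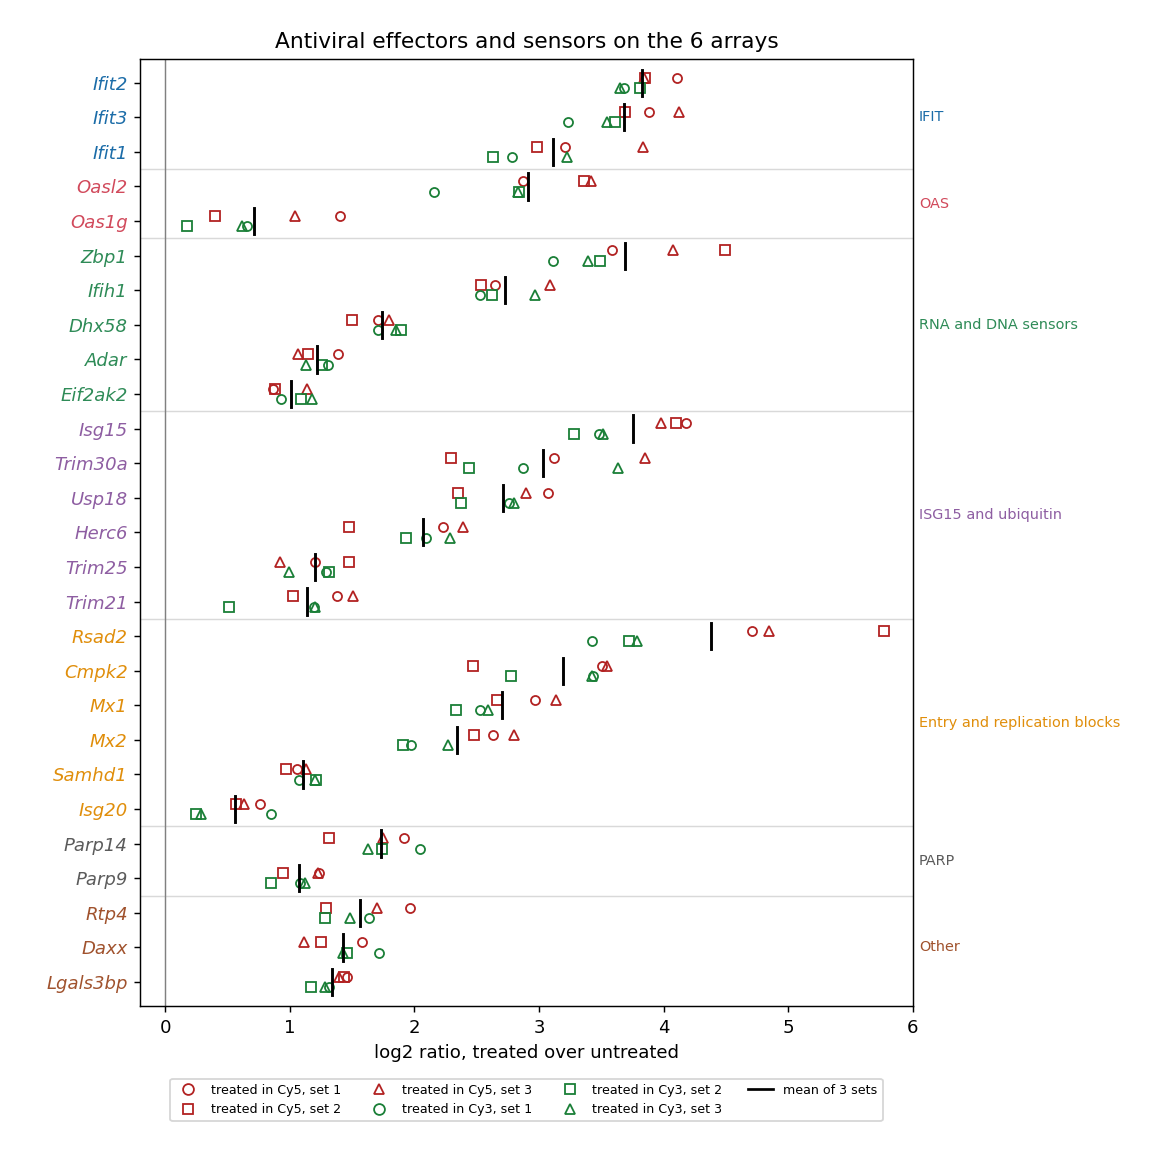
Log2 ratio of treated over untreated RNA for each of the 27 measured genes (rows, grouped by role) on the 6 arrays; red symbols have treated RNA in Cy5, green in Cy3, circles are set 1, squares set 2 and triangles set 3, and black bars are means of the 3 sets. Every point lies above 0, and means run from 0.56 (Isg20) to 4.38 (Rsad2).

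The IFIT genes, whose products form complexes that bind viral RNA and block its translation, rose 3 of 3, with a median of 12.8-fold. Ifit2 had the highest ratio of them. With treated RNA in Cy5 its log2 ratios in sets 1, 2 and 3 were 4.11, 3.86 and 3.85, and with treated RNA in Cy3 they were 3.68, 3.81 and 3.65. All 6 lay close together, and the gene rose 14.2-fold (log2 3.82 ± 0.07, adjusted p = 1.49e-06). For Ifit1, which recognises RNA that lacks host cap methylation, the Cy5 arrays gave 3.21, 2.98 and 3.83 and the Cy3 arrays 2.78, 2.63 and 3.23. Set 3 was the highest in both orientations, and the rise was 8.64-fold (log2 3.11 ± 0.38, adjusted p = 1.25e-05). Ifit3 rose 12.8-fold (log2 3.68 ± 0.14, adjusted p = 1.49e-06). One of its probes stood at 4.55 and the other at 2.81.

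Further IFIT probes had ratios on some arrays only and were left out. Another Ifit2 probe gave 4.85 and 4.62 in Cy5 sets 2 and 3 and 3.86 and 4.01 in Cy3 sets 2 and 3. Another Ifit1 probe had ratios on 2 arrays, -1.65 and -1.08, opposite to the Ifit1 value above. With exact zeros taken as ratios these missing values count as no change, and Ifit1 then stood at 1.33. Ifit1, Ifit2 and Ifit3 are similar in sequence and lie close together on 1 chromosome, and probe sequences were not analysed here, so how far a probe saw another copy was not tested.

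Among the oligoadenylate synthetases, which on binding double-stranded RNA make the activator of the nuclease RNase L, both measured members rose. Oasl2, an OAS-like protein with ubiquitin-like domains, gave 2.87, 3.36 and 3.42 in sets 1, 2 and 3 with treated RNA in Cy5, and 2.16, 2.84 and 2.83 with it in Cy3. Its set 1 arrays were the lowest of each orientation and the orientations did not overlap, with a rise of 7.53-fold (log2 2.91 ± 0.35, adjusted p = 1.27e-05). The low set 1 came mainly from 1 probe, with 2.41, 3.40 and 3.50 in Cy5 (SD over sets 0.63). The other probe gave 3.34, 3.32 and 3.33 there (SD over sets 0.06). In Oas1g the arrays gave 1.40, 0.40 and 1.04 for Cy5 and 0.65, 0.18 and 0.62 for Cy3. Set 2 was the lowest in each orientation, and the rise was 1.64-fold (log2 0.71 ± 0.38, adjusted p = 0.00801). This call was lost with exact zeros kept as ratios (adjusted p = 0.0817). The gene itself had no exact zero, and its log2 ratio stayed at 0.71 there. Oas1a, an active synthetase, lacked a ratio for set 2 with treated RNA in Cy3. Its other arrays gave 2.41, 1.95 and 2.15 (Cy5) and 2.19 and 2.06 (Cy3, sets 1 and 3), and each of these lay above every Oas1g value. With genes accepted on at least 1 array in each set, Oas1a rose 4.34-fold (log2 2.12 ± 0.18, adjusted p = 1.69e-05). Whether probes for these closely related copies separate them was not tested.

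Sensors of foreign or misplaced nucleic acid rose in 5 of 5 measured cases, with a median of 3.34-fold. Zbp1, which binds Z-form nucleic acids and can start necroptosis, led them. Its ratios were 3.59, 4.49 and 4.08 in Cy5 sets 1, 2 and 3 and 3.12, 3.49 and 3.39 in Cy3 sets 1, 2 and 3. Every Cy5 array lay above every Cy3 array, and the rise was 12.9-fold (log2 3.69 ± 0.32, adjusted p = 3.75e-06). Eif2ak2 encodes PKR, a kinase that stops translation when it binds double-stranded RNA. Here the Cy5 arrays gave 0.86, 0.88 and 1.14 and the Cy3 arrays 0.93, 1.09 and 1.18. Its mean was the smallest of the sensors, and it rose 2.02-fold (log2 1.01 ± 0.13, adjusted p = 0.000168), with one probe at 1.25 and the other at 0.78, and stood at 0.68 with exact zeros kept, which bring in a further probe with no ratio on any array.

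Of the RIG-I-like helicases, Ifih1 (MDA5), a sensor of long double-stranded RNA, rose 6.64-fold (log2 2.73 ± 0.26, adjusted p = 7.55e-06), with arrays from 2.53 to 3.09. Dhx58 (LGP2), a helicase that modulates the other members, rose 3.34-fold (log2 1.74 ± 0.07, adjusted p = 9.45e-06) and varied less, from 1.50 to 1.89. Adar, which edits adenosine in double-stranded RNA and so hides self RNA from these sensors, rose 2.32-fold (log2 1.21 ± 0.13, adjusted p = 7.24e-05). Ifih1 was thus raised more than Dhx58 on every array, and Dhx58 more than Adar.

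The ISG15 system and the ubiquitin-related genes rose in 6 of 6 cases, with a median of 5.24-fold. Isg15, the modifier itself, gave 4.18, 4.10 and 3.98 with treated RNA in Cy5 and 3.48, 3.28 and 3.52 with it in Cy3. The sets agreed closely within an orientation, while the orientations stood apart, and the rise was 13.5-fold (log2 3.76 ± 0.07, adjusted p = 1.49e-06). A further Isg15 probe had ratios on 2 arrays only, of which one was -0.67 and the other between -0.01 and 0, and with exact zeros kept Isg15 stood at 1.82. Usp18, the protease that removes ISG15 and dampens interferon receptor signalling, rose 6.54-fold (log2 2.71 ± 0.30, adjusted p = 1.21e-05). Herc6, the chief ISG15 ligase of mice, rose 4.19-fold (log2 2.07 ± 0.33, adjusted p = 4.99e-05), and its probes stood at 2.23 and 1.90.

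Trim30a, a TRIM protein that restrains Toll-like receptor signalling, varied most over sets of the 27 genes. Its arrays gave 3.12, 2.29 and 3.85 for sets 1, 2 and 3 in Cy5 and 2.87, 2.44 and 3.63 in Cy3. In both orientations set 3 was high and set 2 low, and the rise was 8.18-fold (log2 3.03 ± 0.69, adjusted p = 0.000136). Trim21, a cytosolic antibody receptor and ubiquitin ligase, had the smallest rise of this group. It stood at 1.38, 1.03 and 1.51 in Cy5 and 1.20, 0.51 and 1.20 in Cy3. Set 2 was again the lowest in both orientations, and the gene rose 2.20-fold (log2 1.14 ± 0.32, adjusted p = 0.00064). Trim25, a ubiquitin ligase that acts with RIG-I, rose 2.30-fold (log2 1.20 ± 0.22, adjusted p = 0.000192), and its lowest set was set 3.

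Genes whose products block viral entry or replication rose in 6 of 6 measured cases, with a median of 5.74-fold. Rsad2 encodes viperin, which makes a nucleotide that ends viral RNA chains. Its ratios were 4.71, 5.77 and 4.85 with treated RNA in Cy5 and 3.43, 3.73 and 3.79 with it in Cy3, and the orientations were far apart. It rose 20.8-fold (log2 4.38 ± 0.34, adjusted p = 2.64e-06), which put it at rank 9 of 9607 genes in this direction. As averages of 3 arrays this was 34.5-fold in the Cy5 orientation and 12.5-fold in the Cy3 orientation. Cmpk2, a nucleotide kinase gene next to Rsad2 in gene order, rose 9.14-fold (log2 3.19 ± 0.49, adjusted p = 2.89e-05), with arrays from 2.47 to 3.54. In set 2, Rsad2 had its highest value (4.75) and Cmpk2 its lowest (2.62). For Rsad2 this rested on the Cy5 array of set 2 (5.77), since in Cy3 set 3 (3.79) lay above set 2 (3.73). Cmpk2 was lowest in set 2 in both orientations.

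Of the dynamin-like GTPases that block viral replication, Mx1 rose 6.51-fold (log2 2.70 ± 0.19, adjusted p = 3.75e-06) and Mx2 rose 5.07-fold (log2 2.34 ± 0.17, adjusted p = 6.42e-06). The Mx1 probes differed, at 3.41 and 2.00, and the Mx2 value lay between them. Samhd1, which depletes the nucleotides needed for reverse transcription, rose 2.15-fold (log2 1.11 ± 0.05, adjusted p = 6.62e-05), and its 2 probes agreed, at 1.12 and 1.09. Isg20, an RNA exonuclease, had the smallest rise of the 27 genes. Its arrays gave 0.76, 0.57 and 0.63 in Cy5 and 0.85, 0.25 and 0.29 in Cy3. All 6 were below 1, with Cy3 sets 2 and 3 the lowest, and the rise was 1.47-fold (log2 0.56 ± 0.22, adjusted p = 0.0051). Ifitm3, a membrane protein that hinders virus entry, had ratios on 2 arrays only, 0.57 and 0.66 in Cy3 sets 2 and 3, and was not tested by the main rule. With exact zeros kept it was tested and not called (limma, adjusted p = 0.211).

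Both measured PARP genes, which encode enzymes of the ADP-ribosyl transferase family, rose. Parp14 gave 1.92, 1.31 and 1.74 in Cy5 and 2.05, 1.74 and 1.63 in Cy3, and rose 3.32-fold (log2 1.73 ± 0.23, adjusted p = 4.08e-05). Parp9, whose product works in a complex with a ubiquitin ligase, gave 1.24, 0.95 and 1.23 in Cy5 and 1.08, 0.85 and 1.12 in Cy3, and rose 2.11-fold (log2 1.08 ± 0.16, adjusted p = 0.00016). Parp14 lay above Parp9 on every array.

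Of the other effectors, 3 were measured and 3 rose. Rtp4, a receptor-transporting chaperone, stood highest, with 1.97, 1.29 and 1.70 in Cy5 and 1.63, 1.28 and 1.49 in Cy3. Set 2 was its lowest in both orientations, and it rose 2.95-fold (log2 1.56 ± 0.26, adjusted p = 8.77e-05). Lgals3bp, a secreted glycoprotein that binds galectin 3, gave 1.46, 1.44 and 1.39 in Cy5 and 1.31, 1.17 and 1.28 in Cy3. Its sets differed least of the 27 genes, and it rose 2.53-fold (log2 1.34 ± 0.04, adjusted p = 2.5e-05). Daxx, a histone chaperone, rose 2.68-fold (log2 1.42 ± 0.20, adjusted p = 7.24e-05).

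The effectors most often had their lowest ratio in set 2. It was the lowest set in 17 of 27 members (63%), as set 1 was in 6 and set 3 in 4. Of 98 other genes raised at least 4-fold, set 2 was the lowest in 19 (19.4%) and set 1 in 62 (63.3%), and of all genes set 2 was the lowest in 38.4%. The share of those other genes with set 1 lowest fell to 33.7% after quantile normalization. Within an orientation alone set 2 was the lowest in 17 members (Cy5) and 14 (Cy3), with 12 in both (44.4%, against 18.2% of all genes). The median of the members was 2.16 in set 1, 1.70 in set 2 and 2.34 in set 3. With array medians subtracted, set 2 was the lowest in 16 members, and after quantile normalization also in 16, beside 24 of the 98 other genes (24.5%). These shares are descriptions over genes of the same 3 sets, which are not independent of each other, and no test was made.

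The interferon beta gene Ifnb1, no member, rose 8.39-fold (log2 3.07 ± 0.81, adjusted p = 0.000247), and its sets 1, 2 and 3 stood at 3.01, 2.29 and 3.91. The order set 3 above set 1 above set 2 was shared by 10 members (37%), namely Ifit1, Ifih1, Dhx58, Herc6, Trim21, Trim30a, Mx1, Mx2, Cmpk2 and Parp9, by 15.3% of the 98 other strongly raised genes and by 19.3% of all genes. After quantile normalization Ifnb1 kept it, and 6 members (22.2%) had it, beside 13.3% of the 98 other genes and 15.6% of all genes. Instead, 6 members had their lowest value in set 1. These were Rsad2 (4.07), Zbp1 (3.35), Oasl2 (2.51), Ifit3 (3.56), Eif2ak2 (0.89) and Samhd1 (1.06). For Oasl2 the low set 1 came mainly from 1 of its 2 probes. Whether interferon beta and the members are linked through this order was not tested.

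**Figure D3:**
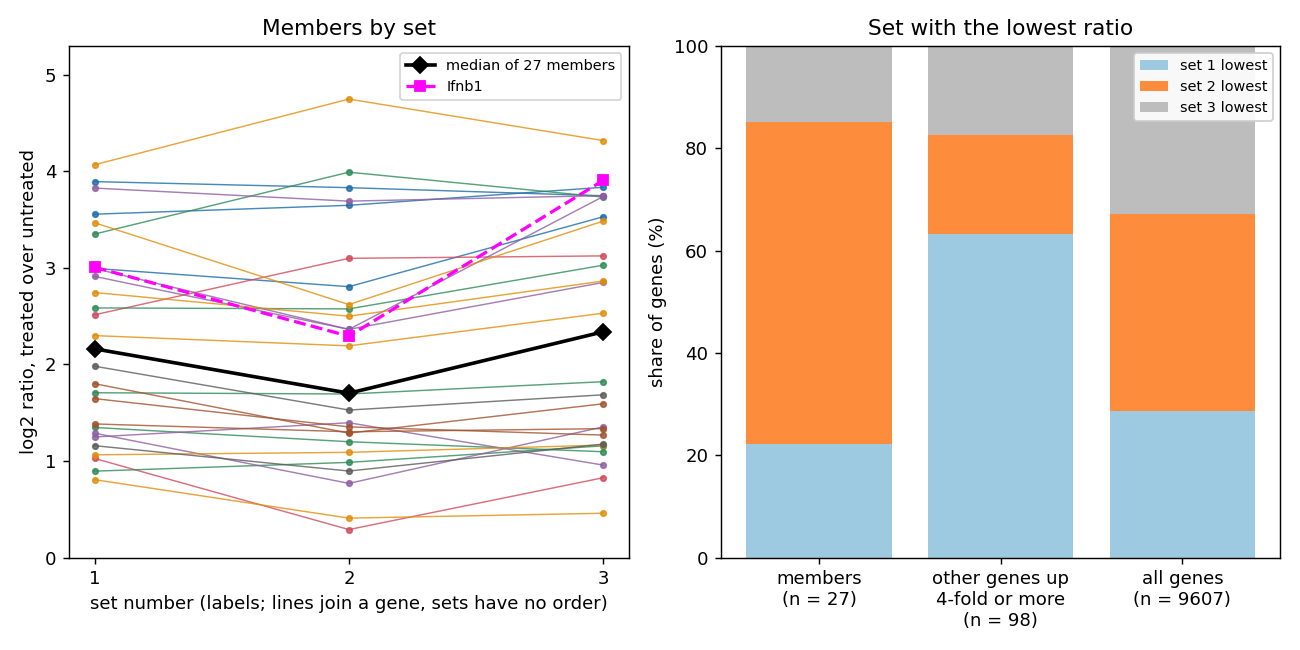
Left, log2 ratio of each of the 27 measured genes in sets 1, 2 and 3 (thin lines; blue for IFIT, red OAS, green sensors, purple ISG15 and ubiquitin, orange entry and replication blocks, grey PARP, brown other; sets have no order), with the median of the members (black) and Ifnb1 (magenta, dashed). Right, share of genes (%) whose lowest ratio was in each set: set 2 in 63% of the members, 19.4% of the 98 other genes raised at least 4-fold and 38.4% of all genes.

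The largest ratios differed in size between the dye orientations. Of the 14 members raised at least 4-fold, 12 had a higher mean ratio with treated RNA in Cy5, by a median of 0.44, and of the 13 members below 4-fold 6 did, with a median difference close to 0. The difference was 1.46 for Rsad2, 0.72 for Zbp1 and 0.66 for Isg15, whereas it was -0.04 for Cmpk2 and -0.22 for Daxx. The orientations did not overlap in 9 members, all of them higher in Cy5, and in 24% of all genes. In limma's test of the dye term, 0 of 27 members were called, beside 0.364% of all genes, and 7 had an unadjusted p under 0.05 (Ifit3, Oasl2, Zbp1, Isg15, Mx1, Mx2 and Rsad2). These are 25.9% of the members, where 16.2% of all genes and 43.9% of the 98 other genes raised at least 4-fold had such a p. Of the 98 other genes raised at least 4-fold, 81 (82.7%) were also higher in Cy5. Every member was called higher on the 3 Cy5 arrays alone and on the 3 Cy3 arrays alone.

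**Figure D4:**
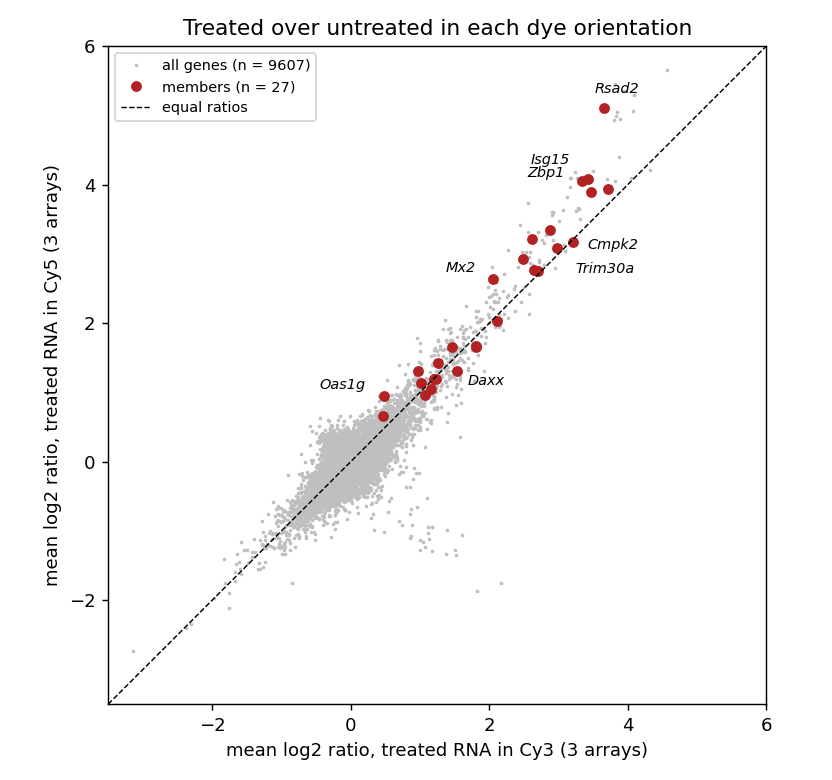
Mean log2 ratio of treated over untreated RNA from the 3 arrays of the Cy5 orientation (vertical) against the 3 of the Cy3 orientation (horizontal), for all 9607 genes (grey) and the 27 members (red); the dashed line marks equal ratios. Most members near the top lie above the line, with Rsad2 farthest from it (a difference of 1.46), while Daxx lies below it.

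The other genes of the pathway, listed by function, had lower medians in each list than the 27 effectors together (log2 2.07). The median of the partners of the effectors (1.77) still lay above those of the sensors (1.74), the PARP genes (1.40) and the other effectors (1.42). The effectors were listed with earlier results of these arrays known, so this difference is a description and no independent evidence. Beside the counts called in each of these lists, 16.8% of all genes were called higher and 14.6% lower. Of the interferon receptors and Janus kinases 5 of 7 rose and 1 fell, with a median of 1.33-fold. Jak2 (log2 1.07 ± 0.26, adjusted p = 0.000468) and Tyk2 (log2 0.67 ± 0.17, adjusted p = 0.00144), kinases bound to cytokine receptors, rose most, and the interferon beta receptor chains Ifnar1 (0.41 ± 0.17) and Ifnar2 (0.45 ± 0.17) rose less. Ifngr1, the ligand-binding chain of the interferon gamma receptor, fell (log2 -0.36 ± 0.10, adjusted p = 0.0105), and Jak1 was at 0.21 ± 0.04 (adjusted p = 0.0554). Without set 1 only 2 of these genes were called higher, and on the Cy3 arrays alone 0 were called lower.

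STAT and IRF factors rose in 7 of 8 measured cases, with a median of 1.43-fold. Irf7, the factor that amplifies interferon production, rose 5.5-fold (log2 2.46 ± 0.14, adjusted p = 3.75e-06), and Stat2, a subunit of the complex that binds the ISRE, rose 3.05-fold (log2 1.61 ± 0.02, adjusted p = 1.16e-05). Irf9, its DNA-binding partner, rose 1.77-fold (log2 0.82 ± 0.14, adjusted p = 0.000457). Irf3, which acts before interferon is made, was at 0.02 ± 0.13 (adjusted p = 0.883). Irf7 did not share the low set 2 of many effectors, since its sets stood at 2.57, 2.50 and 2.31.

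Of 5 measured genes that lead to interferon, 4 rose, with a median of 2.07-fold. Besides Ifnb1 these were the RNA receptor gene Tlr3 (log2 1.71 ± 0.71, adjusted p = 0.00192) and the kinases Ikbke (log2 1.05 ± 0.09, adjusted p = 0.000101) and Tbk1 (log2 0.37 ± 0.05, adjusted p = 0.00705), which phosphorylate IRF3. Tlr4 was at 0.18 ± 0.31 (adjusted p = 0.332). On the Cy5 arrays alone, with exact zeros kept and with robust moderation, 3 of these genes were called higher.

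Partners of the effectors rose in 4 of 7 cases and fell in 1, with a median log2 ratio of 1.77. Uba7, the activating enzyme of ISG15, rose 3.79-fold (log2 1.92 ± 0.16, adjusted p = 1.25e-05), and Ube2l6, its conjugating enzyme, rose 3.40-fold (log2 1.77 ± 0.02, adjusted p = 7.5e-06). With Isg15, Herc6 and Usp18, each measured gene of ISG15 attachment and removal was thus higher. Mlkl, the executioner of necroptosis, rose 3.74-fold (log2 1.90 ± 0.03, adjusted p = 5.58e-06), while Ripk3, the kinase that links Zbp1 to it, fell (log2 -0.45 ± 0.22, adjusted p = 0.0123). That fall was not called without set 2 or with exact zeros kept. Trex1, a nuclease that removes cytosolic DNA, rose 3.85-fold (log2 1.95 ± 0.12, adjusted p = 8.7e-06). Abce1 (0.17 ± 0.66) and the PKR activator Prkra (0.09 ± 0.18) did not pass.

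Of 6 measured negative regulators, 3 rose and 0 fell, with a median log2 ratio of 0.32. Socs1, which inhibits Janus kinases, rose 1.93-fold (log2 0.95 ± 0.01, adjusted p = 0.000114). Ptpn11 (0.61 ± 0.09) and Ptpn2 (0.37 ± 0.15), phosphatases of the pathway, rose less. Socs3 (0.08 ± 0.19), Pias1 (-0.16 ± 0.07) and Rnf125 (0.28 ± 0.21) did not pass.

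**Figure D5:**
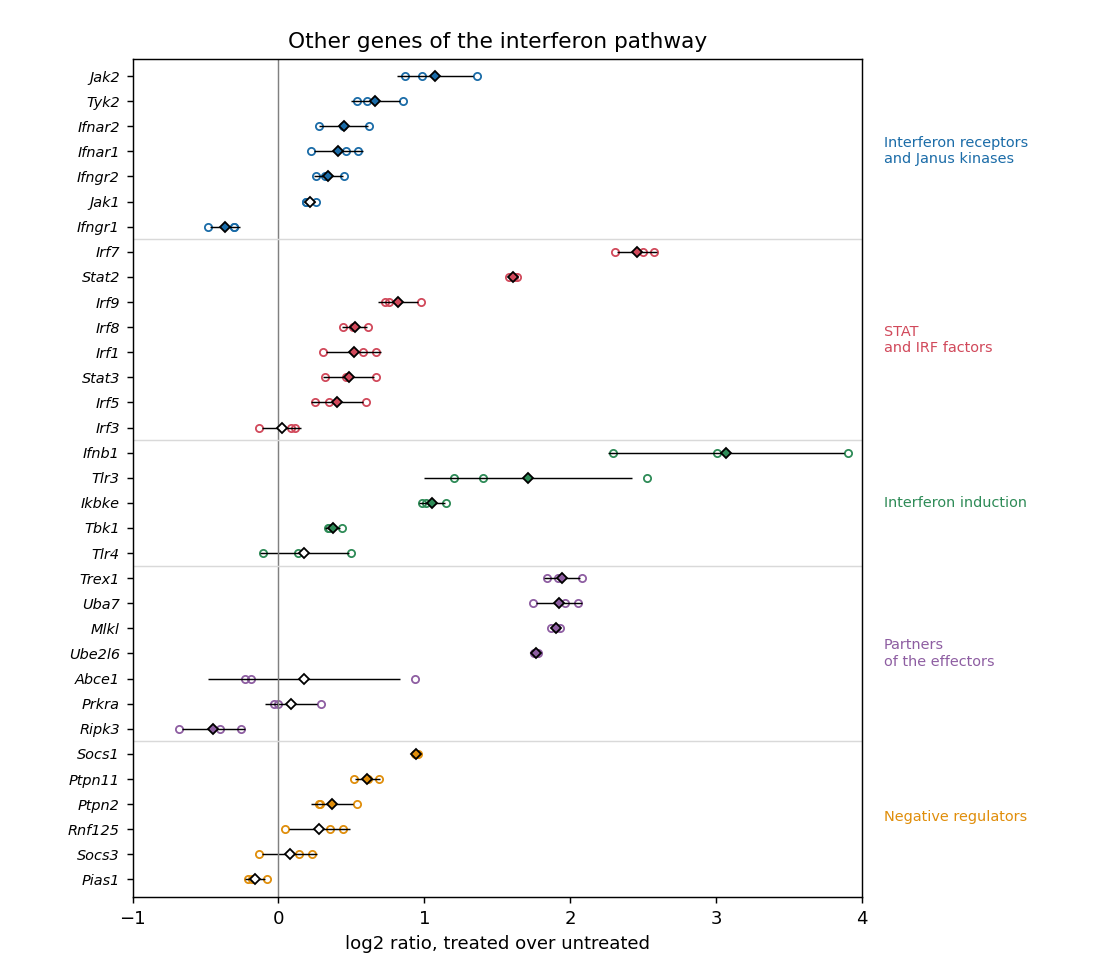
Log2 ratio of treated over untreated RNA for measured genes of the interferon pathway outside the list of effectors; open circles are the 3 sets, diamonds the mean with bars of 1 SD, filled where limma called the gene (adjusted p under 0.05) and white where it did not. Ifnb1 and Irf7 stand highest, at 3.07 and 2.46, and Ifngr1 and Ripk3 are the called genes below 0.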

How the data were processed

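The authors deposited 1 log2 value per probe and array, read from its signs and range as the log2 ratio of the channels. The sources used here do not give the background correction, normalization or scanner. Each deposited column has a median of 0. Exact zeros (9.56% to 12.9% of 16281 probes per array) were taken as missing. Values ended at 6.644, the log2 of 100, which no member reached. Ratios were turned to treated over untreated by the dyes in the labels. Of the probes, 13738 named 1 symbol, 52 several and 2491 were not listed. Genes are means of probes with a ratio on all 6 arrays. Arrays of 1 set number were averaged, and the 3 set values tested against 0 with limma 3.58.1 (lmFit, eBayes) in R 4.3.3, with Benjamini-Hochberg adjustment. A model of the 6 arrays with treatment and dye tested the dye term. Scripts were tested on simulated data. Motifs, alignments and figures used Python 3.11.15. Per-array values are printed for the highest and lowest member of each role group and for members whose sets span over 1 or lack a call. Members and lists were chosen with earlier results of these data known. Neighbouring genes come from the RefSeq gene order of GRCm38.p6. Precision is limited by the number of arrays.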

Additional observations from a re-analysis of the deposited data

How the results depend on the processing

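All 27 members stayed called higher under 13 of the 14 alternatives tried. These covered a single dye orientation, 6 separate arrays, array medians, quantile normalization, a looser filter, other summaries of probes, robust moderation and leaving out each set. The exception was exact zeros kept as ratios, where Oas1g was lost and Ifitm3, tested there, was not called. Each of the 27 members had its highest adjusted p (limma) there, also where its ratio did not change. For Ifit3 it was 0.00524 in place of 1.49e-06, and for Rsad2 0.00674 in place of 2.64e-06. Ifit2 (0.04) and Isg20 (0.0486) stayed called only narrowly. The size of the adjusted p-values given above thus depends on how exact zeros are treated. The median of the members moved between 1.74 (exact zeros kept, 29 members tested) and 2.25, and without replicate 1, 2 or 3 it was 2.02, 2.25 and 1.93. No member had a called dye term in the 9 alternatives in which it was refitted. The set numbers did not clearly pair the arrays over all genes (r of deviations 0.219, 0.0789 and 0.57 for sets 1, 2 and 3, and over the members alone 0.767, 0.75 and 0.82), and the arrays of set 2 did not correlate best with each other. With the set number as a replicate block in a 6-array fit, and with no replicate block, 27 members rose, and 17.2% and 19.9% of all genes were called higher. With exact zeros kept, 903 genes fell in place of 1400, and the cause was not tested. On the Cy3 arrays alone 1 negative regulator fell. On the Cy5 arrays alone, and with exact zeros kept, 6 STAT and IRF factors and 2 negative regulators rose, in place of 7 and 3.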

Other observations

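The genes next to the 41 listed genes on the chromosome, taken from the RefSeq order of protein-coding genes, showed no common direction. Of 67 such neighbours outside the list 28 were measured, with a median of 0.05. Of these 7 rose (25%, against 16.8% of all genes) and 3 fell (10.7%, against 14.6%). Zbtb22, a zinc finger gene beside Daxx, rose 6.62-fold (log2 2.73 ± 0.21, adjusted p = 4.54e-06), more than Daxx itself at 1.42 ± 0.20. Agrn, encoding the matrix protein agrin, beside Isg15 (log2 1.38 ± 0.14, adjusted p = 4.7e-05), Ifi44l beside Ifi44 (log2 1.32 ± 0.45, adjusted p = 0.00106), the protease gene Fap beside Ifih1 (log2 1.26 ± 0.06, adjusted p = 3.75e-05) and the receptor subunit gene Chrnb2 beside Adar (log2 0.99 ± 0.08, adjusted p = 0.000125) also rose. Dgke beside Trim25 (0.42 ± 0.11) and Aen beside Isg20 (0.28 ± 0.13) rose less.

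Ifi27, beside Ifi27l2a and of the same gene family, fell (log2 -1.47 ± 0.16, adjusted p = 4e-05), unlike every measured member. Kat2a beside Dhx58 (-0.33 ± 0.08) and Tuba8 beside Usp18 (-0.39 ± 0.26) fell slightly. Whether the neighbouring probes bind transcripts of the members was not tested, since probe sequences were not analysed here.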
